A study of Mus musculus with 6 samples.

Results

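The oxidative phosphorylation genes described here are the 85 genes whose symbols begin with mt-, Ndufa, Ndufb, Ndufc, Ndufs, Ndufv, Uqcr or Atp5, of the 32285 genes in the count tables. They comprise 13 genes of the mitochondrial genome, whose symbols carry the prefix mt-, and 72 genes of the nuclear genome. All 13 mt- genes and 70 of the 72 nuclear genes passed the filter on low counts. Ndufa13 had 0 UMIs in all 6 libraries, and Ndufa4l2 had 7 UMIs in all of them together. A UMI is a random tag that lets each captured RNA molecule be counted once.

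Epithelial cells from the crypts of mouse ileum were sorted by the surface protein EpCAM, and their RNA was counted cell by cell in droplets of the MobiNova-100 system. The 6 libraries fell into 2 groups of 3 on a C57BL/6J background. Fpr2f/f mice, labelled WT, carried loxP-flanked (floxed) alleles of Fpr2, which encodes a receptor for formyl peptides. Fpr2VKO mice carried the same floxed alleles and a Cre recombinase under the Villin promoter, which is active throughout the intestinal epithelium and not in a single epithelial cell type. There were 3 mice in each group, and the labels do not say which library came from which mouse. The comparison of the groups asks whether loss of Fpr2 in the epithelium goes with a change of these genes. The comparisons by mitochondrial share and by marker class ask how the genes of the 2 genomes vary among the barcodes. These are droplet tags, each meant to stand for 1 cell. No cell calling was applied, so some of the barcodes kept may not hold a cell.

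Oxidative phosphorylation is carried out in the inner mitochondrial membrane. Complex I takes electrons from NADH, complex II from succinate, and both hand them through complex III and cytochrome c to complex IV, where oxygen is reduced. Protons moved by complexes I, III and IV drive complex V, the ATP synthase. The mt- genes encode core membrane subunits and are transcribed inside the organelle as long polycistronic RNAs, while all other subunits and the assembly factors come from the nucleus, and their production draws on transcription factors such as NRF1, GABPA (NRF2) and YY1. In the small intestine, absorptive enterocytes are rich in mitochondria, and stem cells and Paneth cells of the crypt base are known to differ in their use of mitochondrial respiration. In droplet data a high share of mt- UMIs is also read as a sign of damaged cells.

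The promoters of 3 nuclear genes are shown because these genes stand for the patterns described below. Ndufs5, an accessory subunit of complex I, had the smallest p of the members between the groups. Ndufb5, another accessory subunit, fell with rising mitochondrial share, and Ndufb7, also an accessory subunit, did not. Each stretch is the 250 bases before the annotated start of the RefSeq transcript in build GRCm38.p6, written 5′ to 3′ on the strand of the gene. Capitals mark a motif core, and a stretch without capitals held none of the 3 cores searched. The Ndufs5 stretch lies at chr4:123718187-123718436 (minus strand), the Ndufb5 stretch at chr3:32736813-32737062 (plus strand) and the Ndufb7 stretch at chr8:83566508-83566757 (plus strand). The capitals are the NRF1 core in Ndufs5 and the GABPA core in Ndufb7. The annotation used for gene positions below starts these genes inside the stretches. Its starts are at 123718202 for Ndufs5, 32736990 for Ndufb5 and 83566671 for Ndufb7. By that annotation the GABPA core of Ndufb7 lies within the gene.
Ndufs5: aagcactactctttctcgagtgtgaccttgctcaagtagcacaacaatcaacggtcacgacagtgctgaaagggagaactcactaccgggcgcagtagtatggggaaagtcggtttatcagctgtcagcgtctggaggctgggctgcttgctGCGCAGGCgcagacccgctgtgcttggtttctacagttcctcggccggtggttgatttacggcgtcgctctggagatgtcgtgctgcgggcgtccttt
Ndufb5: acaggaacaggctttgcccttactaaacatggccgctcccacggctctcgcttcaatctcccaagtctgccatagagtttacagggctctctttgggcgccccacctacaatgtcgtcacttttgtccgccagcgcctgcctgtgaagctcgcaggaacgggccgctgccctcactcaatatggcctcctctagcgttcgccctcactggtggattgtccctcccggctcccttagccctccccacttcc
Ndufb7: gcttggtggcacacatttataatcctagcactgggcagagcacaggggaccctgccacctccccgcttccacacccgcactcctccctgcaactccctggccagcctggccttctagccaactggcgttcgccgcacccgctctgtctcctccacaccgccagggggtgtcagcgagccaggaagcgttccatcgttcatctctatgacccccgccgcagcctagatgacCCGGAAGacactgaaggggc

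Of the 72 nuclear genes, 61 matched an entry of the RefSeq promoter table. The NRF1 core GCGCANGC, searched on both strands, was present in 15 of them (24.6%), against 12.4% of the 17492 protein-coding genes in the table. The GABPA core CCGGAAG was present in 11 (18.03%), against 10.2%, and the YY1 core AAGATGGC in 1 (1.64%), against 1.77%. A match describes letters in this window and not a bound factor. Of the 20 nuclear genes that fell most between barcodes under 20% mitochondrial and those of 40% and more, 18 had an entry, and 6 of these held the NRF1 core and 3 the GABPA core. Of the 20 that fell least or rose, 18 had an entry, and 3 held the NRF1 core and 4 the GABPA core.

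The libraries held 90142126 to 189516114 UMIs. Barcodes with at least 1000 UMIs and 500 genes were kept, which left 9736 to 22872 barcodes per library and 83002 in all, with a median of 2692.5 to 4434 UMIs. Fpr2 had 0 UMIs in all 6 libraries, where 3 UMIs would be 0.0355 to 0.0651 CPM (UMIs per 1000000 nuclear UMIs of the same sum), so its level checks no label. Replicates 1 and 2 of both groups shared 289 to 838 barcode sequences pairwise, as did both replicates 3, which is 2.61% to 6.20% of the smaller library, while other pairs shared 30 to 100 (0.302% to 0.769%). The expression profiles of shared barcodes correlated at 0.304 to 0.369 across genes, and those of shuffled barcodes of the same libraries at 0.306 to 0.376. Markers of fibroblasts, endothelium and red blood cells summed to 5.42 to 9.82 CPM, and immune markers to 148 to 594 CPM, with stem, enterocyte, Paneth, goblet, enteroendocrine and tuft markers all detected.

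The mt- genes took 23.5% to 33.9% of all UMIs. In Fpr2f/f the share was 29.1%, 23.5% and 25.3% in replicates 1, 2 and 3, with a mean of 26.0% ± 2.90 (SD, n = 3). In Fpr2VKO it was 33.9%, 27.6% and 27.2%, with a mean of 29.6% ± 3.78 (SD, n = 3). The groups overlapped, and the difference of 3.61 percentage points was close to the pooled SD of 3.37. As a median over barcodes the share was 31.7%, 26.3% and 29.2% in Fpr2f/f and 39.3%, 33.9% and 32.4% in Fpr2VKO, without overlap. In the 39926 barcodes without a marker class (described below) the groups did not overlap either, at 28.9% to 32.8% and 33.0% to 38.0%, whereas they overlapped in each of the 8 marker classes. The 72 nuclear genes were measured relative to nuclear UMIs alone, so that the mt- genes do not enter their level. Their summed level was 25110, 21665 and 22520 CPM in Fpr2f/f and 22246, 24676 and 24162 in Fpr2VKO, which overlapped. The means were 23098 ± 1794 and 23695 ± 1281 (SD, n = 3 each). As a median over barcodes the level was 18946, 17558 and 18690 CPM in Fpr2f/f and 19640, 19936 and 23275 in Fpr2VKO, without overlap. Summed over barcodes of 40% mitochondrial and more it did not overlap either, at 18347 to 19313 and 19543 to 21714 CPM. It overlapped in barcodes under 20% (22715 to 28768 and 24267 to 25869), at 20 to 40% (20866 to 22573 and 21542 to 24991) and at 20% and more (20169 to 21318 and 20670 to 24067). The 2 sums over all barcodes did not order the libraries alike, since Fpr2VKO replicate 1 had the highest mitochondrial share and the second lowest nuclear level.

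**Figure D1:**
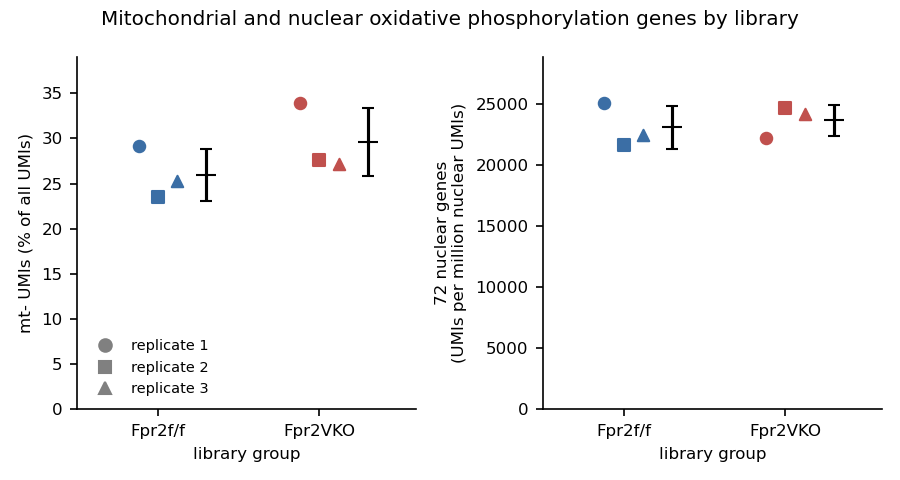
The panels plot, for each of the 6 libraries, the mt- genes as a percentage of all UMIs and the 72 nuclear genes in CPM. Each point is 1 library, with the mean and SD of the group beside the points (n = 3), and the groups overlap in both of these sums, at 23.5% to 33.9% and at 21665 to 25110 CPM.

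Some measures of the libraries moved with the groups. In droplets of 10 to under 100 UMIs, taken as free RNA, mt- genes took 43.3% to 49.3% of UMIs in Fpr2f/f and 50.0% to 54.0% in Fpr2VKO, without overlap. Barcodes under 20% mitochondrial made up 22.0%, 34.3% and 29.1% of Fpr2f/f and 9.91%, 23.9% and 14.4% of Fpr2VKO barcodes, which overlapped. The 8 stem markers summed to 1042 ± 135 CPM in Fpr2f/f and 1889 ± 67.6 in Fpr2VKO (SD, n = 3 each), without overlap, and Paneth markers ranged from 18163 to 59587 and from 31963 to 64438 CPM. The part of these measures in the group results was not tested.

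Across barcodes, nuclear genes of oxidative phosphorylation were lower where the mitochondrial share was higher. Barcodes were divided by the share of mt- genes in their UMIs, and UMIs were summed per library and bin. Nuclear members summed to 24978 ± 2126 CPM in barcodes under 20%, 22797 ± 1757 at 20 to 40% and 19695 ± 1134 at 40% and more (SD, n = 6). In finer steps the level first rose, from 5820 ± 2374 CPM under 5% to 25005 ± 3287 at 5 to 10% and 30202 ± 2222 at 10 to 20%. It then fell at each step, to 23675 ± 2080 at 20 to 30%, 21801 ± 1557 at 30 to 40%, 20183 ± 1181 at 40 to 60% and 17187 ± 1111 at 60% and more. The 6 libraries at 10 to 20% (27385 to 33696 CPM) did not overlap with those at 60% and more (15968 to 19001 CPM). Free RNA had a nuclear member level of 24871 ± 2210 CPM at a mitochondrial share of 49.1% ± 3.54 (SD, n = 6), above the level in barcodes of a like share.

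**Figure D2:**
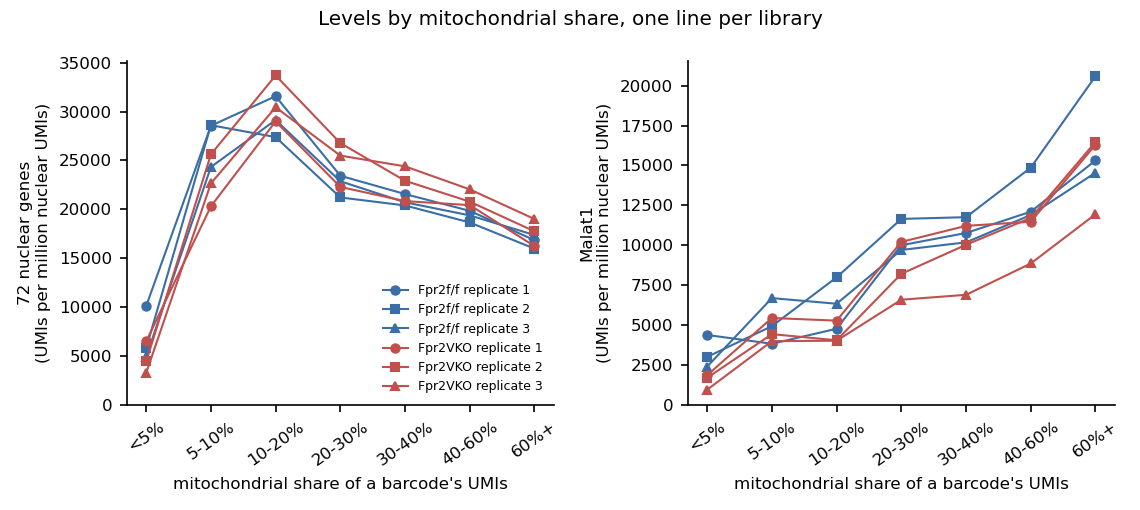
The panels plot levels in CPM against the mitochondrial share of the barcodes in 7 steps, 1 line per library. Nuclear members peak at 10 to 20% (mean 30202 CPM) and fall to 17187 CPM at 60% and more, while Malat1 rises to 15860 CPM.

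The bins differed in their makeup. Paneth markers made up 408220 CPM in barcodes under 5% mitochondrial, 30102 at 5 to 10% and 5448 at 10 to 20%. In the 3 wide bins they summed to 81888, 8646 and 5214 CPM, and goblet markers to 15763, 5163 and 2838. The nuclear-retained RNA Malat1 rose from 2371 CPM under 5% to 15860 at 60% and more, and was 4516 in free RNA. Median UMIs per barcode ranged over libraries from 3040 to 6742 under 20%, 2072 to 3800 at 20 to 40% and 2244 to 5685 at 40% and more. The part of these differences in the fall was not tested across all barcodes, and the same contrast within 1 marker class is given below.

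Gene by gene, most nuclear members were lower in the bins of high mitochondrial share. A test across 18164 nuclear genes (edgeR quasi-likelihood, library as block, TMM scaling, which centres the bulk of genes near 0) called 65 of 70 nuclear members between 20 to 40% and under 20%, with Benjamini-Hochberg adjusted p under 0.05. Of these, 58 were lower and 7 higher, while of all genes tested 72.9% were called, 36.9% lower and 36.0% higher. Between 40% and more and under 20% it called 67, of which 62 were lower and 5 higher, where 78.4% of all genes were called, 39.2% in each direction. The median log2 fold change of the members was -0.57 at 20 to 40% and -0.92 at 40% and more, against 0.02 and 0.03 over all genes tested. TMM moved these medians. Scaled to nuclear library size alone, the medians over all genes were 0.43 and 0.58 and those of the members -0.16 and -0.38, with 39 lower and 16 higher and with 50 lower and 13 higher. The scaling shifts all genes by nearly the same amount, so it could not have changed the distance of the members from the median of all genes by much. Within barcodes of the Enterocyte marker class alone, 60 were lower and 2 higher at 20 to 40%, where 55.0% of all genes were called, 27.4% lower and 27.6% higher. At 40% and more 67 were lower and 2 higher there, against 68.7% of all genes, 32.1% lower and 36.7% higher. Within the TA class 61 were lower and 3 higher at 20 to 40% (66.5% of all genes called, 34.4% lower and 32.1% higher) and 63 and 3 at 40% and more (70.7%, 34.7% lower and 36.0% higher).

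**Figure D3:**
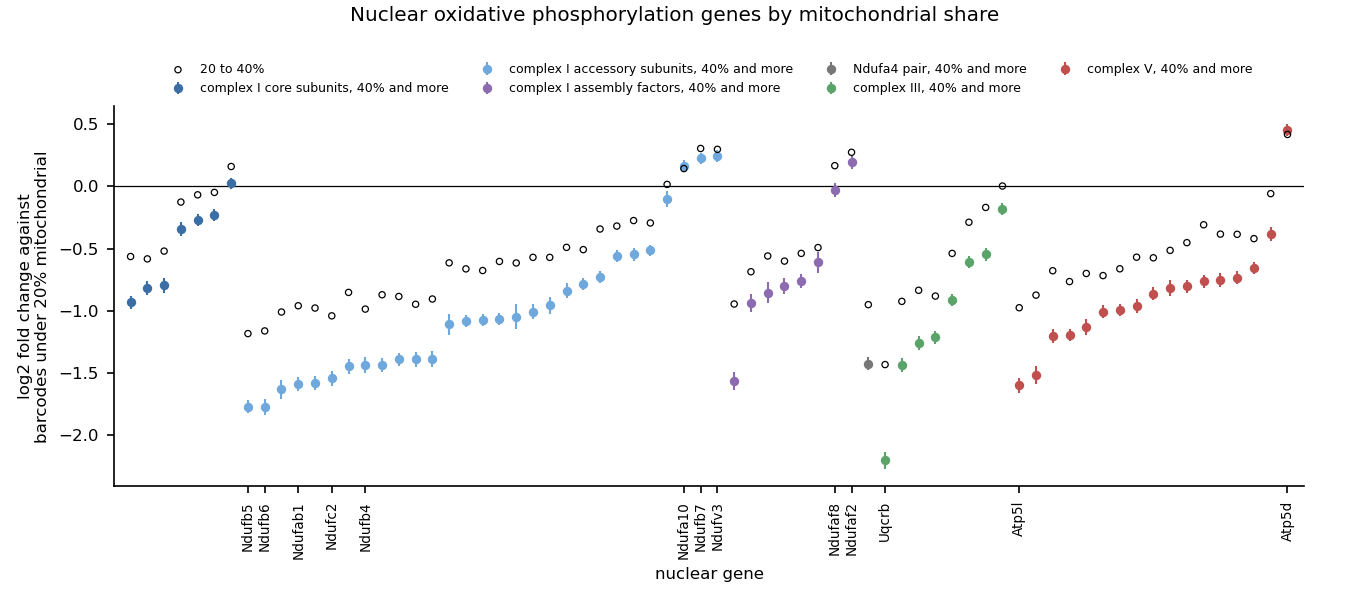
Each of the 70 nuclear members tested is a point on the x axis, with its log2 fold change against barcodes under 20% mitochondrial on the y axis. Filled points with standard errors are barcodes of 40% and more coloured by role, and open points are barcodes of 20 to 40%. The x axis names only the members that the rule for named genes picked in these 2 comparisons. Members run from -2.21 (Uqcrb) to 0.46 (Atp5d).

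Complex III, which passes electrons from ubiquinol to cytochrome c, fell as a whole at 40% and more. All 8 of its members were lower, with a median log2 fold change of -1.07, and without TMM 5 were lower and 1 higher (-0.52). Uqcrb, a small nuclear subunit of the complex on chromosome 13 (66900617 to 66905378, GRCm38), had the lowest value of all members. Its level under 20% had a lowest, median and highest library of 404, 602 and 752 CPM, and at 40% and more of 149, 183 and 226. The libraries of the 2 bins did not overlap. The log2 fold change was -2.21 ± 0.07 (SE, adjusted p = 6.59e-19) and -1.66 without TMM.

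Complex I, where NADH is oxidised, fell more in its accessory subunits than in its core by the size of the medians, a difference that was not tested. Of 29 accessory subunits tested, 25 were lower and 3 higher at 40% and more, with a median log2 fold change of -1.08. Of 7 core subunits, 6 were lower and 0 higher, with a median of -0.34, and without TMM 3 were lower and 4 higher (0.21). Of 8 assembly factors 6 were lower and 1 higher, with a median of -0.78. Ndufb5 had a lowest, median and highest library of 290, 366 and 432 CPM under 20% and 127, 154 and 177 at 40% and more, so the bins did not overlap (log2 -1.78 ± 0.05, adjusted p = 4.97e-20). Ndufb6, another subunit of the membrane arm, changed by -1.78 ± 0.06 on the log2 scale, and Ndufab1, the mitochondrial acyl carrier protein that also serves fatty acid synthesis, by -1.59 ± 0.06. Ndufb5 shared 12.3% of its exon bases with Mrpl47 and Ndufb6 38.998% with Smim27, both on the opposite strand. At 20 to 40%, Ndufb5 was already at -1.19, and Ndufc2 and Ndufb4, also accessory subunits, were at -1.04 and -0.99.

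A few complex I members were higher at 40% and more than under 20%. With TMM, the log2 fold changes of Ndufb7, Ndufv3 and Ndufaf2 at 20 to 40% were 0.31, 0.30 and 0.27. These were above their values at 40% and more. Ndufb7 had a lowest, median and highest library of 195, 217 and 248 CPM under 20% and 336, 374 and 409 at 40% and more, without overlap. Its log2 fold change was 0.23 ± 0.05 (SE, adjusted p = 6.30e-05) with TMM and 0.78 without. Ndufv3, an accessory subunit next to the NADH-binding site, changed by 0.25 ± 0.05, the assembly factor Ndufaf2 by 0.19 ± 0.05 and Ndufa10 by 0.17 ± 0.05. Within the Enterocyte class the values of Ndufb7, Ndufv3 and Ndufa10 turned to -0.17, -0.15 and -0.0037. Ndufaf2 shared 65.6% of its annotated exon bases with a non-coding RNA on the opposite strand, and the strand setting of the counting was not stated, so reads of the pair cannot be told apart.

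Complex V, the ATP synthase, had 16 members lower and 1 higher of 17, with a median log2 fold change of -0.86. Atp5l, a subunit of the membrane sector, had 740, 791 and 980 CPM in the lowest, median and highest library under 20% and 361, 383 and 445 at 40% and more (log2 -1.60 ± 0.06). The exception was Atp5d, the delta subunit of the central stalk, with 474, 540 and 559 CPM under 20% and 951, 1051 and 1179 at 40% and more. Neither gene had overlapping bins, and they moved in opposite directions (Atp5d, log2 0.46 ± 0.05, adjusted p = 3.61e-09, and 1.00 without TMM). The paralogs Atp5g1, Atp5g2 and Atp5g3, which encode the same mature c subunit of the proton ring, changed by -0.82 ± 0.07, -1.13 ± 0.07 and -1.20 ± 0.05. How the counting treated reads shared by paralogs or pseudogenes was not stated, so the split between them is uncertain. Ndufa4, named for complex I and now assigned to complex IV, changed by -1.43 ± 0.05. The ATP synthase inhibitor Atpif1, which is no member by the rule, changed by -0.42 ± 0.05, and by 0.13 without TMM.

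Other genes of the pathway that the rule left out are read against the same 78.4% of all genes called, 39.2% in each direction. All 4 subunits of complex II were lower at 40% and more, from -1.56 (Sdha) to -0.24 (Sdhb) on the log2 scale. Of 15 nuclear subunits of complex IV, 14 were lower, Cox5a by -1.85 and Cox8a by -1.77, and the isoform Cox4i2 was higher by 1.56 ± 0.40. Cytochrome c (Cycs) changed by -1.39. Of 14 genes for mitochondrial transcription, replication and RNA handling, 8 were lower and 3 higher, a share of calls near that of all genes, among them Tfam, which packages and transcribes mitochondrial DNA (-1.05), the elongation factor Tefm (-1.64) and the DNA polymerase Polg (0.43). Of 7 nuclear regulators, also near the share of all genes, 3 were higher, the coactivators Ppargc1b (0.72), Ppargc1a (0.52) and Pprc1 (0.29), and 2 lower, Gabpa (-0.81) and Yy1 (-0.20). Without TMM, complex II had 2 lower and 1 higher (Sdhb, 0.31), complex IV 14 lower and 1 higher, the mitochondrial gene expression list 7 lower and 6 higher, and the regulators 1 lower and 6 higher, among them Yy1 (0.34).

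The size of the change went with base composition. Across 69 nuclear members with an annotated transcript, the log2 fold change at 40% and more had a Spearman rho of 0.42 with the GC content of the mRNA and 0.05 with its length, and over 15021 genes rho was 0.17 and 0.19. The 10 members with the lowest values had a median GC content of 48.2%, and the 10 with the highest 56.3%. GC content and length are those of the longest annotated protein-coding transcript of each gene, which may not be the one expressed. These correlations run across genes, which share the same libraries and are not independent.

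The makeup of the mt- RNA itself changed little with the mitochondrial share. Of the 13 genes, mt-Nd6 moved most, from 0.0715% ± 0.0094 of mt- UMIs under 20% to 0.0309% ± 0.0030 at 40% and more (SD, n = 6), a mean log2 change of -1.21 that was lower in 6 of 6 libraries. It was 0.413% in barcodes under 5% and 0.0286% in free RNA. Paneth markers were at 81888 CPM under 20% and 5214 at 40% and more, and the Paneth class had a higher share of mt-Nd6, as given below. The part of this makeup in the change of mt-Nd6 was not tested. mt-Nd6 encodes a complex I subunit and is the only protein-coding gene on the light strand, at positions 13552 to 14070 of the mitochondrial genome, and its end overlaps that of mt-Nd5 on the other strand by 14 bases. The next were mt-Nd4l, which changed by -0.23, mt-Atp8 by -0.22 and mt-Co1 by -0.18, lower in 6, 5 and 6 of 6 libraries. mt-Co1, the catalytic subunit of complex IV, went from 15.0% to 13.2% of mt- UMIs. The highest changes were 0.11 for mt-Nd2 and 0.09 for mt-Nd3, both higher in 6 of 6 libraries. mt-Atp8 and mt-Atp6 share 43 bases on the same strand and mt-Nd4l and mt-Nd4 share 7, so their UMIs may be split in a way the counting fixed.

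Lineages were compared through marker classes. Each barcode took the class whose marker genes, none of them a member, scored highest above the library's own level, where the score reached 0.5 and at least 2 markers were detected. The classes held 6829 Stem, 12434 TA (transit-amplifying), 11298 Enterocyte, 3284 Paneth, 5520 Goblet, 2087 Enteroendocrine, 837 Tuft and 787 Immune barcodes, and 39926 had no class. A class is a range of a score and not a cell type, and 6.32% to 11.65% of the barcodes of a library lay within 0.1 of the limit. The median Enterocyte barcode held 19 UMIs of its own markers and 12 of Paneth markers, which were at 9 to 15 in every class but Paneth (206). The median Enteroendocrine barcode held 5 UMIs of its own markers and 15 of Paneth markers. Own and Paneth markers were at 10 and 12 UMIs in the median Stem, 8 and 12 in the TA and 11 and 13 in the Immune barcode. They were at 97 and 15 in the Goblet and 13 and 9 in the Tuft barcode. Paneth markers were 31156 CPM in free RNA.

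Summed over all UMIs of a class, the mitochondrial share was on average highest in the Enterocyte class, at 32.6% ± 6.19, and lowest in the Paneth class, at 7.64% ± 3.98 (SD, n = 6). Barcodes without a class had 33.0% ± 3.29. It was 27.5% ± 2.94 in the TA, 25.8% ± 3.09 in the Tuft, 24.7% ± 2.41 in the Stem, 19.7% ± 3.95 in the Goblet, 18.6% ± 6.31 in the Enteroendocrine and 17.0% ± 3.31 in the Immune class. In the Paneth class the sum rested on few barcodes, since the 1030 of 3284 under 20% mitochondrial held 91.0% of its nuclear UMIs. By the median barcode the order was another. The Enterocyte (33.0% ± 5.85), TA (31.2% ± 4.44) and Stem classes (30.2% ± 5.19) came before the Enteroendocrine (26.8% ± 8.42), Goblet (25.1% ± 7.21), Paneth (23.8% ± 11.68), Tuft (21.6% ± 4.31) and Immune classes (19.4% ± 10.82), with overlapping libraries between neighbours.

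The means of the summed nuclear members gave the same order of the 8 classes as the summed mitochondrial share, and the Paneth value again rested on the barcodes under 20%. Their summed level was 29720 ± 2844 CPM in the Enterocyte, 26408 ± 1648 in the TA, 24503 ± 1715 in the Tuft and 24457 ± 1387 in the Stem class. It was 18133 ± 903 in the Goblet, 17606 ± 1478 in the Enteroendocrine, 15033 ± 1660 in the Immune and 5551 ± 1981 in the Paneth class. Barcodes without a class had 25503 ± 1800 CPM. The library ranges of the Stem, Tuft and TA classes overlapped, as did those of the TA (24316 to 28762) and Enterocyte classes (26461 to 33855) and those of the Goblet, Enteroendocrine and Immune classes.

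Each class was set against the mean of the other 6 epithelial classes across 14637 genes (edgeR, library as block, all genes including mt-), and 83 members were tested. In the Enterocyte class 75 members were higher and 2 lower, where 70.3% of all genes were called, 31.8% higher and 38.5% lower. All 13 mt- genes were higher, with a median log2 fold change of 0.86, as were all 8 members of complex III (0.68), all 7 core subunits (0.65) and 28 of 29 accessory subunits of complex I (0.52), and 16 of 17 members of complex V (0.59). Uqcrfs1, the Rieske iron-sulfur protein of complex III, had a lowest, median and highest library of 458, 514 and 672 CPM in this class and 309, 368 and 418 in the TA class, without overlap (log2 1.06 ± 0.05 against the mean of the other classes, adjusted p = 1.22e-25). mt-Nd3 and mt-Nd5, subunits of complex I, changed by 1.04 ± 0.11 and 1.01 ± 0.11, Atp5g3 by 1.00 ± 0.05 and Atp5g1 by 0.53 ± 0.05, while Atp5g2 was at 0.09 ± 0.05 (adjusted p = 0.144). The 8 assembly factors did not follow, with 2 higher, 2 lower and a median of -0.0040.

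The Stem and TA classes also had more members higher than lower, and they were not tested against the Enterocyte class itself. In the Stem class 39 members were higher and 4 lower, where 66.5% of all genes were called, 30.6% higher and 35.9% lower. In the TA class 46 were higher and 5 lower, where 60.6% were called, 26.6% higher and 33.9% lower. Without TMM 71 members were higher and 0 lower in the Stem class and 76 and 0 in the TA class. In the Enterocyte class they were 69 and 1. All genes moved as well, the median going from -0.07 to 0.21 in the Stem and from -0.07 to 0.27 in the TA class. In the Enterocyte class it went from -0.09 to -0.13. The median of the members went from 0.10 to 0.37 in the Stem, from 0.18 to 0.51 in the TA and from 0.59 to 0.54 in the Enterocyte class. The share of all genes called without TMM is not given here, so these counts do not by themselves set the members apart. The mean of the other classes includes the Paneth class, where the median of all genes without TMM was -1.58. With TMM no mt- gene was called higher in the Stem or TA class. Without it, where all genes had shifted as given above, 9 of 13 were called higher in the Stem and 12 in the TA class. Of 8 assembly factors of complex I, 6 were higher in the Stem and 7 in the TA class, with medians of 0.48 and 0.43, which were the highest role medians in each of these classes. Ndufaf6 had 28.6, 31.9 and 37.5 CPM in the lowest, median and highest library of the Stem class and 14.9, 19.4 and 22.1 in the Enterocyte class, without overlap (log2 0.83 ± 0.08, adjusted p = 3.45e-13). Ndufaf4 changed by 0.70 ± 0.06 in the Stem and 0.59 ± 0.06 in the TA class. In the TA class all 7 core subunits were higher, with a median of 0.35. Lower members in the Stem class were Ndufv3 (-0.37 ± 0.05), mt-Nd6 (-0.37 ± 0.13) and Ndufa1 (-0.22 ± 0.06). In the TA class they were Ndufa1 (-0.40 ± 0.06), Ndufa7 (-0.31 ± 0.06) and Ndufa6 (-0.27 ± 0.05). The mean that the Stem value of mt-Nd6 is set against includes the Paneth class, where mt-Nd6 was at 1.78. Without TMM none of these members was called lower in these 2 classes. The values of Ndufa1 in the Stem class and of Ndufa6 and Ndufa7 in the TA class turned to 0.05, 0.06 and 0.02.

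Genes of mitochondrial transcription and RNA handling, from the list of 14 above, also stood high in these classes, with 12 higher and 1 lower in the Stem class and 10 and 0 in the TA class. In the Enterocyte class 2 were higher and 6 lower, where 70.3% of all genes were called, 31.8% higher and 38.5% lower. Without TMM the counts were 13 and 0 in the Stem, 14 and 0 in the TA and 0 and 6 in the Enterocyte class. The medians of all genes in these fits were 0.21, 0.27 and -0.13. Complex II and nuclear complex IV followed the members in the Enterocyte class, with 4 of 4 and 12 of 13 tested higher.

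The Paneth and Enteroendocrine classes had lower levels. In the Enteroendocrine class 79 members were lower and 0 higher, including all 13 mt- genes, where 57.3% of all genes were called, 28.6% lower and 28.7% higher. Ndufv1, which holds the NADH-binding site of complex I, had 46.9, 60.3 and 86.5 CPM in the lowest, median and highest library there and 128, 144 and 153 in the Enterocyte class, without overlap (log2 -0.96 ± 0.08, adjusted p = 1.99e-15). Uqcrq of complex III changed by -0.88 ± 0.06 and Ndufa9 of complex I by -0.84 ± 0.08. The scaling bears on this count. Without TMM the median of all genes was 0.53 in the place of -0.03, and 8 members were lower and 10 higher, with 0 mt- genes called. The median of the members was -0.63 with TMM and -0.08 without, as a shift common to nearly all genes gives.

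In the Paneth class 59 members were lower and 3 higher, where 51.8% of all genes were called, 24.5% lower and 27.3% higher. Ndufs1, the largest iron-sulfur subunit of complex I, had 13.1, 18.1 and 39.6 CPM in the lowest, median and highest library there and 100.9, 131 and 145 in the Stem class, without overlap. Its log2 fold change was -0.67 ± 0.07 with TMM and -2.20 without, since the median of all genes was -0.02 with TMM and -1.58 without. Without TMM 82 members were lower and 1 higher. mt-Nd6 was the exception, (1 of the 3 higher), with a log2 fold change of 1.78 ± 0.12 (adjusted p = 1.68e-14) and of 0.19 without TMM. It made up 0.195% ± 0.101 of mt- UMIs in the Paneth class (libraries from 0.101% to 0.312%) and 0.0398% to 0.0543% in the means of the other 6 epithelial classes. As a share of all UMIs it was 0.0117% ± 0.0017 in the Paneth and 0.0130% ± 0.0027 in the Enterocyte class (SD, n = 6), which overlapped.

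The Goblet class had more members lower than higher with TMM, and the Tuft class more higher than lower. In the Goblet class 39 members were lower and 3 higher, where 46.2% of all genes were called, 21.3% lower and 24.9% higher. Without TMM 5 were lower and 7 higher, and the median of all genes went from -0.04 to 0.11. Atp5e, the epsilon subunit of the central stalk, changed by 0.21 ± 0.05 and Ndufaf6 by -0.52 ± 0.10. In the Tuft class 25 members were higher and 1 lower, where 26.5% of all genes were called, 11.1% higher and 15.4% lower. Without TMM 63 were higher and 0 lower, and the median of all genes went from -0.08 to 0.21. Ndufb7 had 323, 390 and 466 CPM in the lowest, median and highest library of the Tuft class and 187, 221 and 237 in the Goblet class, without overlap (Tuft class, log2 0.61 ± 0.06, adjusted p = 1.60e-11). Ndufaf3 and Ndufb3 changed by 0.50 ± 0.13 and 0.45 ± 0.07 in the Tuft class, and Atpif1 by 0.56 ± 0.06.

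**Figure D4:**
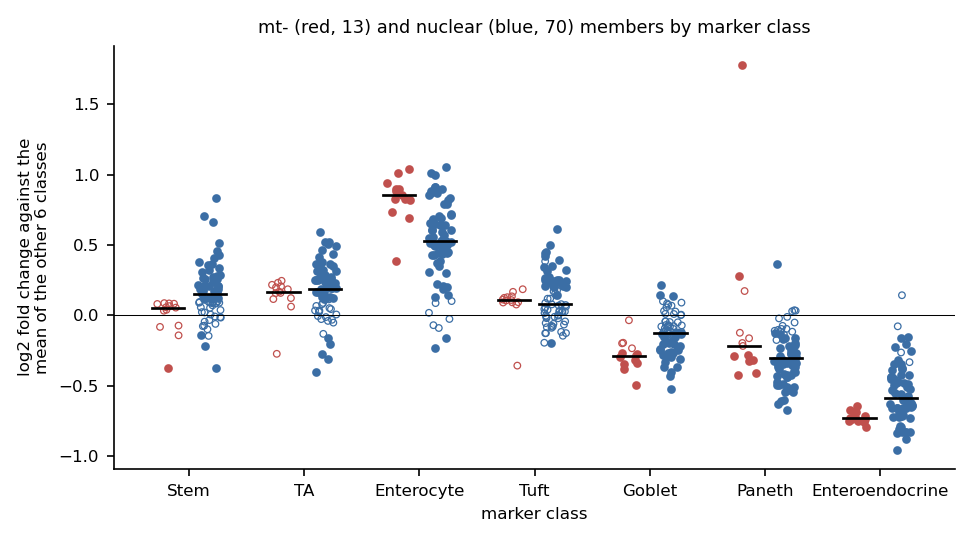
For each of 7 marker classes the y axis gives the log2 fold change of each of the 83 members tested against the mean of the other 6 classes, mt- genes in red and nuclear genes in blue, filled where called and open where not, with a bar at each median. The 13 mt- genes lie above 0 in the Enterocyte class and below 0 in the Enteroendocrine class, and mt-Nd6 reaches 1.78 in the Paneth class.

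The fall of the nuclear members with rising mitochondrial share was not common to all classes. In the Enterocyte class their level was 36897 ± 2857 CPM under 20%, 26602 ± 3257 at 20 to 40% and 19234 ± 1174 at 40% and more, lower in 6 of 6 libraries. The TA class went from 31101 to 22435 and 19772 and the Stem class from 26910 to 21229 and 18869, each lower at 40% and more in 6 of 6 libraries. The Tuft class went from 27311 to 22387 and 18769, with only 2 libraries of enough barcodes in the last bin. Malat1 was higher at 40% and more than under 20% in 6 of the 8 classes too, in the median library going from 5602 to 13806 and 19855 CPM in the Enterocyte, from 3658 to 8974 and 10911 in the TA and from 3134 to 8196 and 9813 in the Stem class, and its part in the fall was not tested. In the Paneth class it went from 1138 to 4968 and 6491 CPM. It was lower at 40% and more in the Enteroendocrine (13409, 14126 and 9964 CPM) and Immune classes (11278, 9051 and 9546). In the Goblet class the level stayed at 17805 ± 713, 18600 ± 1762 and 18538 ± 1192, lower in 3 and higher in 3 libraries.

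In the Paneth, Enteroendocrine and Immune classes the level was higher at 40% and more instead. The Paneth class went from 3675 ± 501 CPM under 20% to 18764 ± 2767 at 20 to 40% and 18950 ± 1207 at 40% and more, higher in 3 of 3 libraries, and the Enteroendocrine class from 15979 ± 1286 to 20727 ± 2449 and 21152 ± 934, higher in 5 of 5. The Immune class went from 13360 ± 1599 to 20183 ± 747 in 5 libraries and 19783 in the 1 library with enough barcodes. The 7 epithelial classes lay 10.04-fold apart under 20%, from Paneth to Enterocyte, 1.43-fold apart at 20 to 40%, and 1.14-fold apart at 40% and more. With the marker genes of all classes taken out of the total the ratios were 5.06, 1.36 and 1.14. Only the listed markers were taken out, 8 for the Paneth class, and other genes particular to a class stayed in the total. Own markers fell over the same bins in 6 of the 8 classes, in the Paneth class from 484510 to 149730 and 87130 CPM, in the Goblet class from 118340 to 56392 and 37884 and in the Enteroendocrine class from 47963 to 17305 and 6593. Those of the TA class went from 2182 to 2470 and 2539 CPM and those of the Tuft class from 4684 to 4813 and 3178. With the markers taken out of the total, the Paneth class went from 7406 to 22483 and 21120 and the Enteroendocrine class from 16852 to 21483 and 21655, and the Goblet class from 20475 to 19978 and 19512. Free RNA had 24871 CPM, and its part in the barcodes of each bin was not tested.

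**Figure D5:**
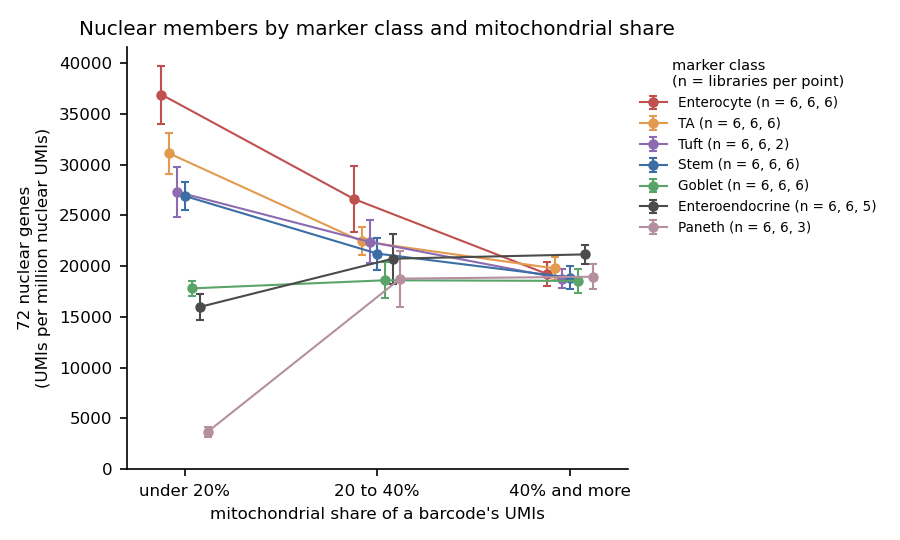
The y axis gives the 72 nuclear genes in CPM and the x axis the mitochondrial share of the barcodes in 3 bins, 1 line per marker class, with the mean and SD over libraries (n in the legend). The lines spread from 3675 to 36897 under 20% and meet between 18538 and 21152 at 40% and more.

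Between Fpr2VKO and Fpr2f/f no member passed the test. In all 11 comparisons (all barcodes, barcodes under 20% and of 20% and more mitochondrial, and 8 marker classes) edgeR called 0 members at an adjusted p under 0.05, and DESeq2 also called 0. The background was low too, with 0.0242% of all genes called over all barcodes, 0.0177% under 20%, 0.084% at 20% and more, 0.0383% in the Stem, 0.0737% in the TA, 0.00739% in the Enterocyte, 0.00924% in the Paneth, 0.159% in the Goblet, 0.0% in the Enteroendocrine, 0.079% in the Tuft and 0.0% in the Immune class. At an unadjusted p under 0.05 edgeR had 2 members over all barcodes, 2 under 20%, 7 at 20% and more, 4 in the Stem, 2 in the TA, 1 in the Enterocyte, 1 in the Paneth, 6 in the Goblet, 3 in the Enteroendocrine, 1 in the Tuft and 3 in the Immune class. DESeq2 had 5, 2, 11, 6, 5, 1, 1, 4, 8, 0 and 1 in the same order. Of all genes, 3.79% to 9.58% had such a p by edgeR and 2.06% to 7.91% by DESeq2. At 20% and more, where both counts were highest, 7 and 11 of 70 nuclear members stood against 8.33% and 7.91% of all genes. In the Enteroendocrine class the 3 and 8 of 83 members (3.61% and 9.64%) stood against 3.79% and 2.06% of all genes. Over all barcodes the median log2 fold change of the members was 0.08, against 0.05 over all genes.

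Ndufs5 (chromosome 4, 123712710 to 123718202, GRCm38) had the smallest p of the members in 9 of the 11 comparisons and was lower in Fpr2VKO in 11 of 11. These comparisons share barcodes and libraries and are not independent. It had 7323 UMIs in all 6 libraries, from 723 to 2083 per library. Over all barcodes its level was 24.4, 25.9 and 18.3 CPM in Fpr2f/f and 14.4, 17.8 and 12.5 in Fpr2VKO. The groups did not overlap, by a small margin. The log2 fold change was -0.61 ± 0.19 (SE, edgeR adjusted p = 0.725, from 0.0856 to 1.00 over the alternatives), so it did not pass the correction. Under some alternatives its adjusted p passed in the TA class (from 0.00192 to 1.00), at 20% mitochondrial and more (from 0.0172 to 0.895) and in the Goblet class (from 0.0313 to 0.755). In the Enteroendocrine class the level was 30.7, 33.0 and 30.4 in Fpr2f/f and 13.9, 18.4 and 9.87 in Fpr2VKO, without overlap (log2 -1.18 ± 0.28, adjusted p = 0.995). This class held 154 to 906 barcodes per library, so these levels rest on only a part of the UMIs of the gene. In free RNA it was 17.3, 19.6 and 16.1 in Fpr2f/f and 16.7, 14.9 and 11.3 in Fpr2VKO, which overlapped. Within barcodes under 20% and of 20% and more the log2 fold changes were -0.59 ± 0.18 and -0.54 ± 0.16, the latter called only with a replicate block.

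Over all barcodes, 8 of 70 nuclear members at 1 CPM or more had levels that did not overlap between the groups. In Fpr2VKO 5 were lower and 3 higher, where 5.02% and 5.57% of the 14513 nuclear genes at this level did so. Both directions together made up 10.6% of these genes. The count of members was near that share, and they are named as description only. Besides Ndufs5, the lower were Atp5e, Atp5k, Ndufa10 and Ndufv3, and the higher were Atp5g2, Atp5h and Ndufb9. Atp5k, a subunit of the membrane sector of the ATP synthase, had 349, 351 and 377 CPM in Fpr2f/f and 286, 316 and 334 in Fpr2VKO. Its log2 fold change in the Stem class was -0.40 ± 0.13 (adjusted p = 0.360). Atp5g2 had 455, 410 and 415 in Fpr2f/f and 480, 475 and 517 in Fpr2VKO, with a log2 fold change of 0.21 ± 0.11 (adjusted p = 0.881).

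All 13 mt- genes had positive log2 fold changes over all barcodes, from 0.05 (mt-Nd3) to 0.39 (mt-Cytb), with a median of 0.23. Without TMM 11 of 13 were positive, with a median of 0.15, and mt-Nd3 (-0.03) and mt-Nd4l (-0.02) were not. Without Fpr2VKO replicate 1 the median was 0.08 and 10 were positive. In barcodes under 40% mitochondrial it was 0.06 and 9 were positive. mt-Cytb, the only complex III subunit of the mitochondrial genome, made up 2.26%, 1.90% and 1.88% of all UMIs in Fpr2f/f and 3.05%, 2.18% and 2.28% in Fpr2VKO, which overlapped. Its log2 fold change was 0.39 ± 0.17 (adjusted p = 0.826). In the Enteroendocrine class the mt- genes ran from 0.39 to 1.295, with a median of 0.73, and 0 were called. The makeup of this class differed between the groups. It held 650 barcodes in Fpr2f/f and 1437 in Fpr2VKO, 906 of them in Fpr2VKO replicate 1. In libraries with enough barcodes, those of 40% mitochondrial and more were 57 in Fpr2f/f (2 libraries) and 563 in Fpr2VKO (3 libraries). The part of this makeup in the mt- values was not tested. Among mt- UMIs alone, 2 of the 13 genes had shares that did not overlap. Of nuclear genes at 1 CPM or more, 10.6% had levels without overlap over all barcodes, both directions counted. The 13 shares of mt- UMIs carry no test and have a common total, so they are not independent. mt-Atp6, the proton channel subunit of the ATP synthase, made up 21.0% ± 0.682 in Fpr2f/f and 22.3% ± 0.859 in Fpr2VKO, and mt-Co1 14.1% ± 0.0378 and 12.99% ± 0.748 (SD, n = 3 each). In free RNA mt-Co1 made up 12.1% ± 0.120 and 11.3% ± 0.162 of mt- UMIs, without overlap, and mt-Atp6 23.4% ± 0.704 and 24.1% ± 0.282.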

How the data were processed

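Per the labels and the methods, the authors sequenced 6 droplet libraries, aligned the reads to mm10 with MobiVision and deposited raw UMI counts per gene and barcode, before any cell calling. The annotation version and strand setting are not given in the sources used here. Barcodes with at least 1000 UMIs and 500 genes were kept, at any mitochondrial share, and doublets were not removed. In each group this kept more barcodes than the study counted as cells. Each library's UMIs were summed over all barcodes, over mitochondrial bins and over marker classes, with at least 20 barcodes per sum, so that the library was the replicate. Levels of nuclear genes are in CPM (UMIs per 1000000 nuclear UMIs), those of mt- genes a percentage of all or of mt- UMIs.

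Marker classes came from the mean Pearson residual (overdispersion 10, limited to 10) of each marker list. Genes were tested on the sums with quasi-likelihood F tests of edgeR 4.0.16 under R 4.3.3, after filterByExpr and TMM scaling, with Benjamini-Hochberg adjustment over all genes tested, and with DESeq2 1.42.0 as an alternative. Bin tests used nuclear genes only. Counts of calls without TMM are given without the share of all genes called in the same fits. The scripts were tested on simulated counts. Sums over members carry no test, since the members and lists were chosen with earlier results of these data known. The floor given for Fpr2 covers counting error only. Levels are given with SD over libraries and log2 fold changes with SE. The SE was computed from the fold change and the F statistic of its test, so it includes variation between libraries.

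Genes named are all mt- genes, the 5 smallest p per group comparison, up to 3 higher and 3 lower per class and 5 per bin by fold change among those called with a mean of at least 20 CPM and 1 direction in every library, the Atp5g and Ndufa4 families and Atpif1. Members named for not overlapping between groups and genes of the other lists were chosen after their values were seen. Positions are from the annotation of GRCm38. The labels do not say whether the replicate numbers pair the libraries. Deviations from the group mean cancel within a group for each gene, so their correlations are not independent and cannot decide it. The correlations of same-numbered deviations were -0.0921, 0.209 and 0.542. Those of replicate 3 of one group with replicates 1 and 2 of the other ran from -0.422 to -0.0284, and both replicates 3 shared more barcodes with each other than with the rest, so the set of libraries that share barcodes was tried as a term. Alternatives were other tools and filters, a replicate block, leaving out each library, other UMI limits and, chosen after seeing the data, replicates 1 and 2 only, a term for the set, class markers left out and library size without TMM. The values of 1 member by name are not reported here.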

Additional observations from a re-analysis of the deposited data

Results flagged for a closer look

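The change of the nuclear members from barcodes under 20% mitochondrial to those of 40% and more went one way in some marker classes and the opposite way in others, in every library that had enough barcodes. The mean log2 change was -0.938 in the Enterocyte, -0.513 in the Stem and -0.653 in the TA class (lower in 6 of 6 libraries each), and 0.384 in the Enteroendocrine (higher in 5 of 5) and 2.31 in the Paneth class (higher in 3 of 3). With the marker genes of all classes taken out of the total, the change was 1.46 in the Paneth and 0.348 in the Enteroendocrine class. Only the listed markers, 8 for the Paneth class, were taken out, so other genes particular to a class stayed in the total. Own markers went from 484510 to 87130 CPM in the Paneth and from 47963 to 6593 in the Enteroendocrine class over the same bins, and their part in the change was not tested further. The Immune class had 1 library with enough barcodes in both bins, with a change of 0.782. The difference between the classes was not itself tested. The fewest barcodes behind a value at 40% and more were 20 in the Enteroendocrine and 24 in the Paneth class.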

How the results depend on the processing

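Of 274 counts of members called under 20 results and their alternatives, 262 stayed within 1.5 times the main count. Of 1575 values of the genes picked by p or fold change and of the mt- genes over all barcodes, 1525 kept direction and side of the threshold, 25 lost and 5 gained a call, all 5 of Ndufs5, and 20 reversed. Between the groups, where the main count was 0 throughout, the replicate block called 1 member, Ndufs5, at 20% mitochondrial and more (adjusted p = 0.0172), in the TA class (0.0475) and in the Goblet class (0.0313), and no filter on low counts called it in the TA class (0.00192). Whether the replicate numbers pair the libraries is not known. With the set of libraries that share barcodes as a term, added after seeing the data, the count was 0 in all 11 comparisons. Over the fits that leave out 1 library the count was 0 to 2 in the Goblet class and 0 to 1 in the Enteroendocrine and Immune classes. These gains came without Fpr2VKO replicate 2, with mt-Atp8, not among the values counted above, in each (adjusted p = 0.0234, 0.0488 and 0.0272) and Ndufs5 in the Goblet class (0.0371). Library size without TMM, added after seeing the data, gave 71 calls in the Stem, 12 in the Goblet, 18 in the Enteroendocrine and 63 in the Tuft class, and no filter gave 13 in the Tuft class. It reversed Ndufa1 in the Stem class to 0.0543, Ndufa6 and Ndufa7 in the TA class to 0.0586 and 0.020, and mt-Nd4l in the Paneth class from 0.28 to -1.24. Between the groups over all barcodes it reversed mt-Nd3 to -0.0335 and mt-Nd4l to -0.0171. There a mitochondrial share under 40% reversed mt-Co1 to -0.0188, mt-Nd3 to -0.115, mt-Nd4l to -0.050 and mt-Nd5 to -0.0482, and a UMI total of at least 2000 reversed mt-Nd4l to -0.0586. Leaving out 1 library gave -0.0529 to 0.510 for mt-Atp8, -0.0799 to 0.0802 for mt-Nd3, -0.178 to 0.121 for mt-Nd4l and -0.0674 to 0.167 for mt-Nd5. Within the Enterocyte class, Ndufa10, Ndufb7 and Ndufv3 reversed at 40% and more, to -0.00366, -0.171 and -0.148. Apart from TMM, whose shift of all genes is given above, the cause was not tested. As a median over barcodes, nuclear members differed by 2552 CPM, in place of 596, and the groups no longer overlapped. Depth limits the Tuft, Immune and Enteroendocrine classes, which held 837, 787 and 2087 barcodes in all.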
